A study of Mus musculus with 12 samples.

Results

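The transcripts described here are 9 markers of T and natural killer (NK) lymphocytes, namely Cd3e, Cd3d, Cd3g, Cd4, Cd8a, Cd8b1, Cd2, Nkg7 and Gzmb, chosen by gene symbol and followed across the 4 genotypes of the study. All 9 were found among the 45906 genes of the deposited table. Spinal cord RNA came from 12 mice aged 7 months, 3 in each genotype, and all mice were on the C57BL/6 background. The genotypes were Plekhg5+/+, Plekhg5-/-, Plekhg5+/+ SOD1-G93A and Plekhg5-/- SOD1-G93A. Plekhg5-/- mice lack a guanine exchange factor linked to lower motoneuron disease, and SOD1-G93A mice express a mutant human SOD1 that causes ALS in families, here from the low-copy line of this transgene. Libraries are named by genotype and number (#1 to #3), and the numbers belong to different mice. The question addressed was whether lymphocytes in the spinal cord differed between the genotypes, as far as whole-tissue RNA can show it.

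T lymphocytes recognize peptides through a T cell receptor whose signal is carried by the CD3 chains. CD4 and CD8 are coreceptors that bind MHC class II and class I on the partner cell, and CD2 is an adhesion receptor of T and NK cells. NK cells and cytotoxic T cells kill through granules that hold granzymes such as Gzmb, and Nkg7 is a granule membrane protein of these cells. Few lymphocytes reside in the healthy spinal cord, and T cells are known to enter it in ALS model mice. In RNA of a whole tissue, fewer cells of a type and less RNA per cell cannot be told apart. Some of these genes are also transcribed outside T and NK cells, for example Cd4 and Cd8a in dendritic cells.

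Cd3g, Cd3d and Cd3e lie beside each other on chromosome 9 of GRCm38.p6, Cd3g from 44969572 to 44980431 on the minus strand, Cd3d from 44981769 to 44987052 on the plus strand and Cd3e from 44998735 to 45009663 on the minus strand. Their promoters are shown because these 3 neighbouring genes encode the chains that define T cells. RefSeq promoter windows on GRCm38.p6, from 250 bases before to 50 bases after the gene start, were found for 6 of the 9 genes. The start used for these windows lies inside the outer bounds given above for Cd3d and Cd3e. The letters AGGAAG, a core that ETS factors can bind, and their reverse complement CTTCCT are in capitals; they were searched on both strands and do not overlap each other here. The windows are printed in the direction of the gene, chr9:45009562-45009861 (minus strand) for Cd3e, chr9:44981536-44981835 (plus strand) for Cd3d and chr9:44980382-44980681 (minus strand) for Cd3g.
Cd3e: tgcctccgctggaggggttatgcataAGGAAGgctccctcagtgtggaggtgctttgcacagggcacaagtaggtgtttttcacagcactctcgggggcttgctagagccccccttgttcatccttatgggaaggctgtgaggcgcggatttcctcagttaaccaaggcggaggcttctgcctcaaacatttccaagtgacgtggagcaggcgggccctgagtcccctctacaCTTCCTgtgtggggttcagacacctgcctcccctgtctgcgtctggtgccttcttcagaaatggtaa
Cd3d: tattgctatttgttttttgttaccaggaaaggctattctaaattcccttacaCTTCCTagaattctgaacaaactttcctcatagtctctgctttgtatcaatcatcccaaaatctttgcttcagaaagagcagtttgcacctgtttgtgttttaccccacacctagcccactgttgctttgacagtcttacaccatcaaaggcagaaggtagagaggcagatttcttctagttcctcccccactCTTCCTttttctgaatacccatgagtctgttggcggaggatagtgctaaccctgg
Cd3g: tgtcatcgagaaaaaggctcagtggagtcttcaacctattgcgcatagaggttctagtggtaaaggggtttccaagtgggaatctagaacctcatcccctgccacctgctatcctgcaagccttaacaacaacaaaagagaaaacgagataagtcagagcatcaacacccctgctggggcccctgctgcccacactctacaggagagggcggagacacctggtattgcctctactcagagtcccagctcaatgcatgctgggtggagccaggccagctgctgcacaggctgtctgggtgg
The Cd3e window held these letters 1 time in each direction and the Cd3d window 2 times, both as CTTCCT, while the Cd3g window held none. Of all 32851 promoter windows of this length, 35.4% held them in at least 1 direction, and 3 of the 6 windows of the markers did so, Nkg7 beside Cd3e and Cd3d. A match describes the letters only.

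The libraries held 30415643 to 38743628 counts. Levels are given as CPM, the counts divided by the scaled library size and multiplied to a common total. Plekhg5, the deleted gene, had mean levels of 22.9 ± 3.08 CPM without and 22.4 ± 2.19 CPM with the transgene where it was intact, and of 3.98 ± 0.712 and 4.26 ± 0.413 CPM where it was deleted (SD, n = 3 each). Human SOD1 had means of 4993 and 5001 CPM in the transgenic genotypes and of 0.959 and 2.64 CPM in the others. All 12 libraries thus went with their labels. Markers of spinal cord tissue, 12 in number, were at 23597 to 31366 CPM in sum in each library. Plekhg5-/- SOD1-G93A #2 stood apart. It was the highest of the 12 libraries in 7 of the 9 lymphocyte markers, while it was the highest library for 6.98% of the 34819 genes with a count. It also had 20.8 CPM in sum of 5 genes of sensory ganglia, among them Avil, Fxyd2, Pirt and Trpa1, against 3.04 to 4.65 CPM in the other 11 libraries. These 5 genes were chosen with the values known, and their part in the lymphocyte counts was not tested. Y-linked transcripts passed 1000 counts in 3 libraries of Plekhg5+/+, 2 of Plekhg5-/-, 2 of Plekhg5+/+ SOD1-G93A and 1 of Plekhg5-/- SOD1-G93A mice, and 0 markers were called with this as a covariate. Several results that rest on Plekhg5-/- SOD1-G93A #2 are given with and without it, and others only with it.

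All 9 markers were rare in the spinal cord. Over the 12 libraries, the total was 32 reads for Gzmb, 33.25 for Cd3e, 43.17 for Cd3d, 59 for Cd3g, 74 for Cd2, 77 for Nkg7, 100 for Cd8b1, 126 for Cd8a and 126.67 for Cd4. Fractions arise because the authors divided reads with several matches. Per kilobase of exon, the mean level over the 12 libraries was highest for Nkg7 at 0.240 ± 0.223 CPM per kb (SD, n = 12) and lowest for Gzmb at 0.0534 ± 0.0389 CPM per kb (SD, n = 12). Between them, in falling order, stood Cd8b1, Cd2, Cd3g, Cd8a, Cd4, Cd3d and Cd3e, and no neighbours in this order differed by more than the SD of either. The order changed with the libraries taken. Without Plekhg5-/- SOD1-G93A #2, Cd2 (0.150 CPM per kb) stood above Cd8b1 (0.120) and Gzmb (0.0510) above Cd3e (0.0455), and in the Plekhg5+/+ libraries alone Cd2 had 0.172 and Nkg7 0.0849 CPM per kb. Only Cd4, Cd8a, Cd8b1 and Cd2 passed the filter on low counts (edgeR's filterByExpr) and were tested among 20155 genes. The other 5, Cd3e, Cd3d, Cd3g, Nkg7 and Gzmb, are described by their counts and by an exact permutation test, whose smallest p with 3 against 3 mice is 0.1.

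**Figure D1:**
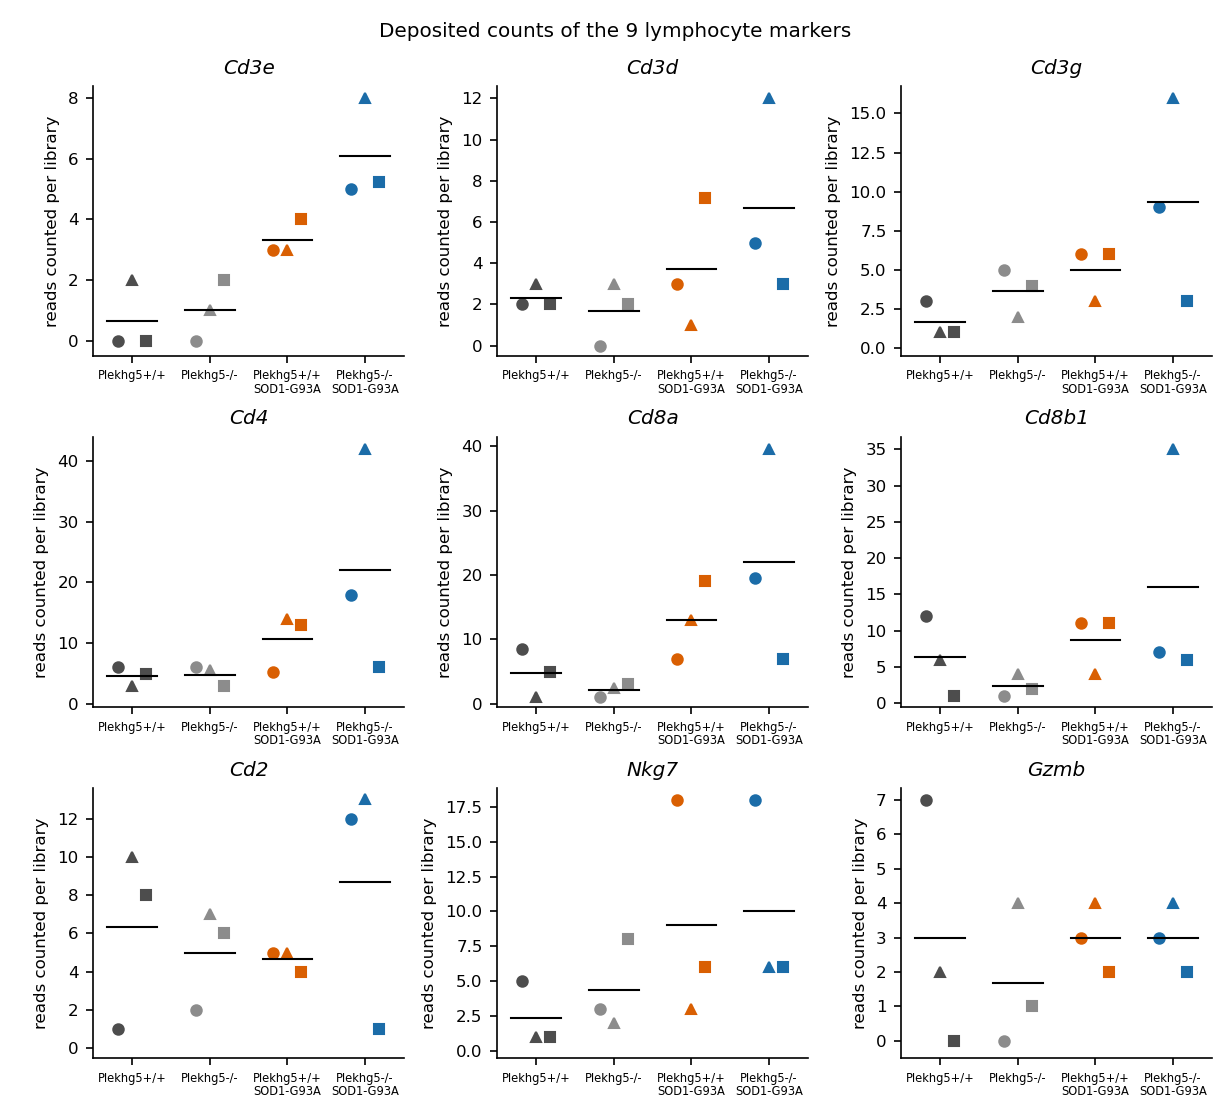
Reads counted for each of the 9 markers (y axis, deposited counts per library) in the 4 genotypes (x axis); each point is 1 library (circle #1, triangle #2, square #3) and the line is the mean of 3. Plekhg5-/- SOD1-G93A #2 is the highest point in 7 panels, with 42 reads of Cd4 and 39.5 of Cd8a, whereas Nkg7 and Gzmb have their highest points in other libraries.

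Among the CD3 chains, Cd3e was the marker whose genotypes separated most often. Cd3e, which encodes the epsilon chain, had 0, 2 and 0 reads in Plekhg5+/+ mice, 0, 1 and 2 in Plekhg5-/-, 3, 3 and 4 in Plekhg5+/+ SOD1-G93A and 5, 8 and 5.25 in Plekhg5-/- SOD1-G93A mice. The transgenic libraries all lay above those without the transgene, and the Plekhg5-/- SOD1-G93A libraries above the Plekhg5+/+ SOD1-G93A libraries, by margins as small as 1 read. In each of these 3 comparisons the exact permutation test (two-sided, 3 against 3 mice) gave p = 0.1, the smallest it allows. A count of 0 is also compatible with up to 3 reads at this depth. The ratio of the summed reads between Plekhg5+/+ SOD1-G93A and Plekhg5+/+ mice was 5.22, with a 95% interval from 1.11 to 49.0, and between Plekhg5-/- SOD1-G93A and Plekhg5-/- mice it was 5.68 (1.66 to 30.1). For loss of Plekhg5 in transgenic mice the ratio was 1.64 (18 against 10 reads). Its 95% interval, from 0.719 to 3.99, included 1, so the summed reads of Cd3e did not separate these 2 genotypes beyond counting error. These intervals, from reads rounded to whole numbers, cover counting error only, as PCR copies are not told apart.

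Cd3g, the gamma chain, had 3, 1 and 1 reads in Plekhg5+/+, 5, 2 and 4 in Plekhg5-/-, 6, 3 and 6 in Plekhg5+/+ SOD1-G93A and 9, 16 and 3 in Plekhg5-/- SOD1-G93A mice. Scaled to library size, the 3 Plekhg5+/+ SOD1-G93A libraries lay above the 3 Plekhg5+/+ libraries (exact permutation p = 0.1), although in reads the highest of the latter equalled the lowest of the former. All other comparisons of Cd3g overlapped. Cd3d, the delta chain, had 2, 3 and 2 reads in Plekhg5+/+, 0, 3 and 2 in Plekhg5-/-, 3, 1 and 7.17 in Plekhg5+/+ SOD1-G93A and 5, 12 and 3 in Plekhg5-/- SOD1-G93A mice. Its groups overlapped in every comparison. Summed over the 3 chains, 14 reads were counted in Plekhg5+/+, 19 in Plekhg5-/-, 36.17 in Plekhg5+/+ SOD1-G93A and 66.25 in Plekhg5-/- SOD1-G93A mice, 36 of the last in library #2.

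The coreceptors had more reads and a wider spread. Cd4 (chromosome 6 from 124864693 to 124888247) had 6, 3 and 5 reads in Plekhg5+/+, 6, 5.5 and 3 in Plekhg5-/-, 5.17, 14 and 13 in Plekhg5+/+ SOD1-G93A and 18, 42 and 6 in Plekhg5-/- SOD1-G93A mice. A transgenic library of each Plekhg5 genotype remained at the level of the controls, and the groups overlapped in every comparison. Mean levels were 0.141 ± 0.0413, 0.145 ± 0.0441, 0.337 ± 0.157 and 0.662 ± 0.567 CPM (SD, n = 3) in this order of genotypes.

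Cd8a (chromosome 6 from 71373427 to 71379171), the alpha chain of CD8, had 8.5, 1 and 5 reads in Plekhg5+/+, 1, 2.5 and 3 in Plekhg5-/-, 7, 13 and 19 in Plekhg5+/+ SOD1-G93A and 19.5, 39.5 and 7 in Plekhg5-/- SOD1-G93A mice. All Plekhg5-/- SOD1-G93A libraries lay above all Plekhg5-/- libraries, which were low. Cd8b1, the beta chain, lies upstream of Cd8a on the same strand, from 71322788 to 71337492. It had 12, 6 and 1 reads in Plekhg5+/+, 1, 4 and 2 in Plekhg5-/-, 11, 4 and 11 in Plekhg5+/+ SOD1-G93A and 7, 35 and 6 in Plekhg5-/- SOD1-G93A mice. It separated only Plekhg5-/- SOD1-G93A from Plekhg5-/- mice, as Cd8a did, with p = 0.1 in the exact permutation test for both genes.

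Unlike the CD3 chains and coreceptors, Cd2 (chromosome 3 from 101275908 to 101287939) had a lower mean level with SOD1-G93A in Plekhg5+/+ mice. This direction reversed when Plekhg5+/+ #2 was left out. Like them, Cd2 had a higher mean in Plekhg5-/- SOD1-G93A than in Plekhg5-/- or Plekhg5+/+ SOD1-G93A mice. Its reads were 1, 10 and 8 in Plekhg5+/+, 2, 7 and 6 in Plekhg5-/-, 5, 5 and 4 in Plekhg5+/+ SOD1-G93A and 12, 13 and 1 in Plekhg5-/- SOD1-G93A mice. The ranges of all 4 genotypes overlapped.

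The 2 granule genes had few reads in every genotype. Nkg7 (chromosome 7 from 43437138 to 43438246) had 5, 1 and 1 reads in Plekhg5+/+, 3, 2 and 8 in Plekhg5-/-, 18, 3 and 6 in Plekhg5+/+ SOD1-G93A and 18, 6 and 6 in Plekhg5-/- SOD1-G93A mice. A single library of each transgenic genotype held most of the reads, and the groups overlapped in every comparison. Gzmb (chromosome 14 from 56258836 to 56262334) had 7, 2 and 0 reads in Plekhg5+/+, 0, 4 and 1 in Plekhg5-/-, and 3, 4 and 2 in both transgenic genotypes. Its highest library was a Plekhg5+/+ library. The ratio of summed Gzmb reads between Plekhg5+/+ SOD1-G93A and Plekhg5+/+ mice was 1.04, with a 95% counting interval from 0.367 to 2.97. Ratios within this interval are compatible with the reads by counting error alone, and the spread between mice is left out of it.

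**Figure D2:**
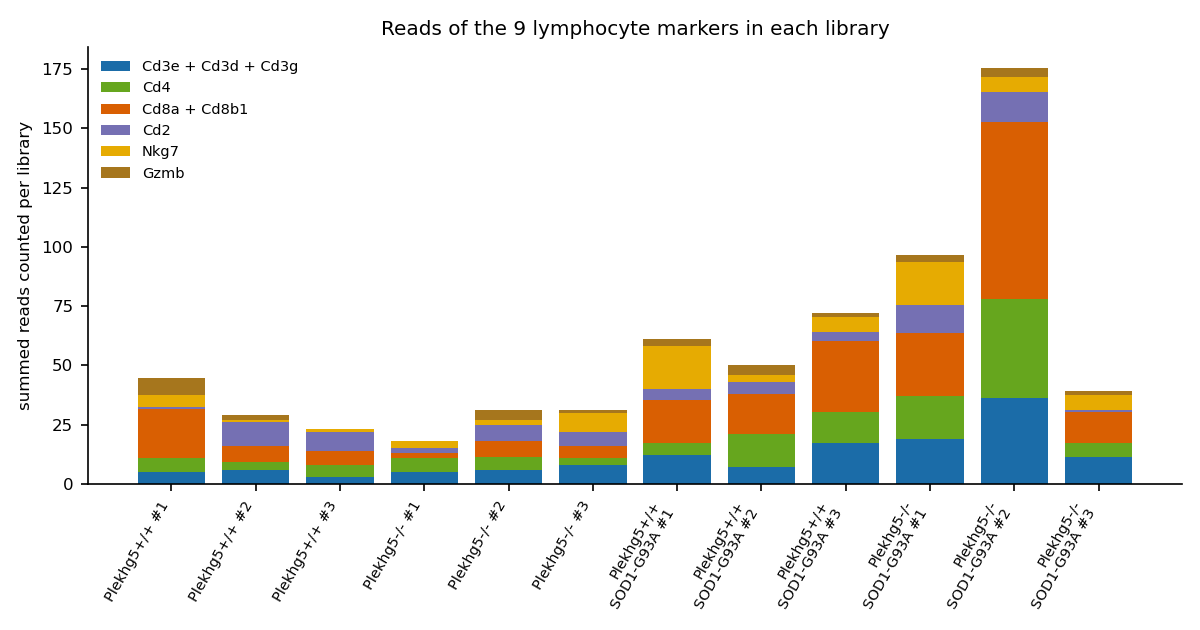
Reads of the 9 markers summed in each of the 12 libraries (bar height, from 0), divided by gene group. The sums are 18 to 44.5 reads in the 6 libraries without the transgene and 39.25 to 175.5 reads in the 6 transgenic libraries.

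Summed over the 9 markers, Plekhg5+/+ libraries held 44.5, 29 and 23 reads, Plekhg5-/- libraries 18, 31 and 31, Plekhg5+/+ SOD1-G93A libraries 61.17, 50 and 72.17, and Plekhg5-/- SOD1-G93A libraries 96.5, 175.5 and 39.25 reads. The last library, Plekhg5-/- SOD1-G93A #3, lay within the range of mice without the transgene. The mean summed level was 1.90 ± 0.257 CPM (SD, n = 3) in Plekhg5+/+ SOD1-G93A and 3.11 ± 2.16 CPM (SD, n = 3) in Plekhg5-/- SOD1-G93A mice, a ratio of 1.63. Without Plekhg5-/- SOD1-G93A #2 this ratio was 1.05.

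The effect of SOD1-G93A in Plekhg5+/+ mice was the first comparison. The mean level was higher in Plekhg5+/+ SOD1-G93A mice for 8 of the 9 markers and lower for Cd2, or for 6 to 8 of the 9 with a library left out, fewest without Plekhg5+/+ #3, while 48.6% of all genes with a count had a higher mean. In 2 of the 9, Cd3e and Cd3g, all transgenic libraries lay above all controls, which held for 8.39% of genes with a count. The median log2 ratio of mean levels over the 9 markers was 1.26, beside a median edgeR log2 fold change over all genes tested that lay between −0.01 and 0.01 in this and the 3 other pairwise comparisons. The 4 comparisons share libraries, each genotype entering 2 of them, and are not independent. None of the 4 tested markers passed the threshold (edgeR's quasi-likelihood test, adjusted p under 0.05), and 0 had an unadjusted p under 0.05. Among all genes tested, 2.47% passed. Without Plekhg5-/- SOD1-G93A #3, 3 of 5 markers then tested had an unadjusted p under 0.05 (edgeR), as did 3536 of 20514 genes. Without Plekhg5+/+ #1 it was 2 of 5, beside 4070 of 20509 genes, and with any other library left out it was 0 or 1. Cd8a had a log2 fold change of 1.5 (SE 0.73, adjusted p = 0.307) and Cd4 of 1.22 (SE 0.74, 95% interval from −0.38 to 2.83). The values for Cd8b1 and Cd2 were 0.49 (SE 0.83) and −0.39 (SE 0.83). Without the filter, all 9 markers had an adjusted p of 0.348 or more (edgeR). Cd3e and Nkg7 had an unadjusted p under 0.05 there, as did 4165 of 33742 genes. DESeq2 gave an adjusted p for 2 of the 9 and called 0.

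The same contrast was made in Plekhg5-/- mice. All 9 markers had a higher mean level in Plekhg5-/- SOD1-G93A than in Plekhg5-/- mice, while 46.4% of genes did. In 3 of the 9, Cd3e, Cd8a and Cd8b1, the groups did not overlap, which held for 5.36% of genes in this direction. The median log2 ratio over the 9 was 1.96, and 1.29 without Plekhg5-/- SOD1-G93A #2. The log2 fold change was 3.36 for Cd8a (SE 0.80, adjusted p = 0.455, edgeR), 2.67 for Cd8b1 (SE 0.92, adjusted p = 0.771) and 2.08 for Cd4 (SE 0.66, adjusted p = 0.721). These 3 had an unadjusted p under 0.05, as did 1084 of all 20155 genes, and none of the 4 tested passed after adjustment, where 0.00496% of all genes passed. Without library #2 the values were 2.61 for Cd8a, 1.33 for Cd8b1 and 1.17 for Cd4. Of 5 markers then tested 1, Cd8a, had an unadjusted p under 0.05 (edgeR), beside 758 of 20507 genes. Without the filter, 6 of the 9 had an unadjusted p under 0.05, beside 1401 of 33742 genes, and the lowest adjusted p was 0.444 (edgeR). For Cd8a, the adjusted p was 0.0952 with DESeq2 and its prior and 0.0659 without the prior, and 0 of the 5 markers with an adjusted p in DESeq2 passed the threshold with either.

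**Figure D3:**
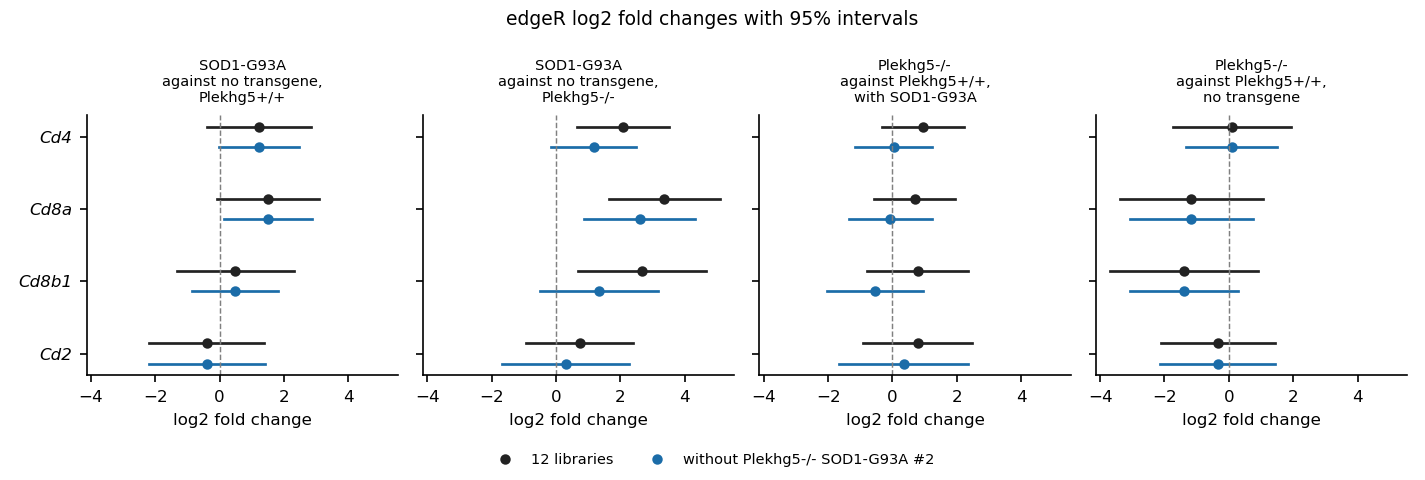
edgeR log2 fold changes (x axis, points) with 95% intervals (lines) of the 4 markers that passed the filter, in 4 comparisons; black, all 12 libraries, and blue, without Plekhg5-/- SOD1-G93A #2. In the comparison of Plekhg5-/- with Plekhg5+/+ mice that carry SOD1-G93A, the Cd8b1 point moves from 0.79 to −0.55 when this library is left out.

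Loss of Plekhg5 in mice with SOD1-G93A was compared next. The mean level was higher in Plekhg5-/- SOD1-G93A than in Plekhg5+/+ SOD1-G93A mice for 8 of the 9 markers, Gzmb being the exception, while 45.2% of genes had a higher mean. Without Plekhg5-/- SOD1-G93A #2 it was higher for 6 and lower for 3, and the median log2 ratio went from 0.81 to 0.074. Without Plekhg5-/- SOD1-G93A #3, the lowest library of that genotype, it was higher for all 9, with a median of 1.19. In that fit, 2 of 5 markers tested had an unadjusted p under 0.05 (edgeR), beside 1373 of 20514 genes. The interaction in that fit also had 2 of 5, beside 1605 of 20514 genes. With all libraries, Cd3e alone did not overlap between the groups of this comparison, which held for 6.48% of genes in this direction. The counting interval for its ratio of summed reads, from 0.719 to 3.99, included 1, as did those of Cd3d, Cd3g, Cd2, Nkg7 and Gzmb. Those of Cd4 (ratio 1.88, 1.22 to 2.97), Cd8a (1.55, 1.02 to 2.36) and Cd8b1 (1.69, 1.03 to 2.83) lay above 1. So did those of the CD3 chains summed (1.67, 1.10 to 2.59) and the 9 markers summed (1.55, 1.29 to 1.87). These intervals leave out the spread between mice. Library #2 held 175.5 of the 311.25 reads of the 9 markers in Plekhg5-/- SOD1-G93A mice. None of the 4 tested markers passed the threshold (edgeR), against 0.0347% of all genes, and 0 had an unadjusted p under 0.05. The log2 fold change of Cd4 was 0.95, with a 95% interval from −0.32 to 2.22, and that of Cd8a was 0.69 (−0.56 to 1.95). Without library #2 they were 0.044 and −0.064, so that the direction for Cd8a, as for Cd8b1, rested on this library. DESeq2 with its prior gave an adjusted p for 2 of the 9, neither under the threshold, and for 0 without the prior.

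In mice without the transgene, loss of Plekhg5 was compared at counts of 0 to 12 reads per marker and library. The mean level was higher in Plekhg5-/- than in Plekhg5+/+ mice for 4 of the 9 and lower for 5, with a median log2 ratio of −0.36. In 0 of the 9 did the Plekhg5-/- libraries all lie above the Plekhg5+/+ libraries, which held for 4.03% of genes. Cd8a and Cd8b1 had log2 fold changes of −1.17 (SE 1.03) and −1.39 (SE 1.06). Their reads together gave a ratio of 0.415, with a 95% counting interval from 0.206 to 0.793 that leaves out the spread between mice. Plekhg5+/+ #1 held 20.5 of the 33.5 Plekhg5+/+ reads of this pair. For the 9 markers summed the ratio was 0.839, and its counting interval, from 0.616 to 1.14, included 1. None of the 4 tested passed (edgeR), where 0.0298% of all genes did, and 0 had an unadjusted p under 0.05. The intervals were wide, from −3.40 to 1.06 for Cd8a. DESeq2 called 0 of the 6 markers for which it gave an adjusted p.

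The difference between the effects of SOD1-G93A in Plekhg5-/- and in Plekhg5+/+ mice was tested as an interaction. It was 2.18 on the log2 scale for Cd8b1 (SE 1.29, adjusted p = 0.608, edgeR), 1.86 for Cd8a (SE 1.18, adjusted p = 0.624), 1.13 for Cd2 (SE 1.13) and 0.86 for Cd4 (SE 1.05). These values include Plekhg5-/- SOD1-G93A #2, and that of Cd4 turned negative without this library. None passed the threshold, as did 0.0% of all 20155 genes in edgeR, where 1824 genes had an unadjusted p under 0.05; DESeq2 called 112 genes with its prior and 95 without it, and gave an adjusted p for 0 of the 9 markers. The effects of SOD1-G93A were therefore not shown to differ between Plekhg5-/- and Plekhg5+/+ mice.

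Other genes of the T cell receptor complex and its signalling, 20 in number, gave 12 tested and 0 called by edgeR in each of the 5 comparisons with all libraries. In Plekhg5+/+ mice, 11 of the 12 had a positive log2 fold change with SOD1-G93A, with a median of 0.65. The 3 with the smallest p were Cd28, a costimulatory receptor, with 3, 2 and 1 reads in Plekhg5+/+ and 24, 13 and 6 in Plekhg5+/+ SOD1-G93A mice (log2 fold change 2.82, SE 0.69, adjusted p = 0.0517, edgeR), the kinase Lck (1.03, SE 0.27, adjusted p = 0.0676) and the receptor constant gene Trac (0.54, SE 0.16, adjusted p = 0.101). Lck passed with DESeq2, at adjusted p = 0.0463 with the prior and 0.0359 without it, and with 1 of the 12 libraries left out in edgeR, and Cd28 passed with 2 of the 12 left out. Trac had 63 to 115 reads in every library, and Skap1 and Zap70 likewise had 19 or more reads in each library without the transgene, 3 of which had 0 reads of Cd3e. Of the 20 genes, 8 had their highest level in Plekhg5-/- SOD1-G93A #2, among them Cd247, the zeta chain, with 23 reads there and 3 to 11 elsewhere, and Themis, a signalling protein of developing T cells, with 24 reads there.

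Cytotoxic and NK genes had few reads. Of 20 genes, 4 passed the filter and 0 were called in any comparison (edgeR). The smallest p in Plekhg5+/+ mice with and without SOD1-G93A belonged to Ctsw, a protease of cytotoxic cells (log2 fold change 1.07, adjusted p = 0.178), the receptor Cd244a (1.36, adjusted p = 0.191) and the interleukin receptor chain Il2rb (1.05, adjusted p = 0.218). Ncr1, the defining receptor of NK cells, had 1 to 6 reads in each library, perforin (Prf1) also 1 to 6, and Ifng 0 or 1. Of the 20, 2 had their highest level in Plekhg5-/- SOD1-G93A #2. Among 10 genes of helper and regulatory T cells, 4 were tested and 0 called, and those with the smallest p included Ikzf2 (log2 fold change −0.36, adjusted p = 0.170, edgeR) and Il2ra (0.28, adjusted p = 0.703). Il17a was at 0 in all 12 libraries and Foxp3 at 0.5 to 7.5 reads.

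Ligands and receptors of lymphocyte homing rose in Plekhg5+/+ SOD1-G93A mice in 3 of the 11 tested of 16 genes (edgeR). Ccl5, a chemokine for T cells, rose by 2.34 on the log2 scale (SE 0.39, adjusted p = 0.0146), and Cxcl10, a ligand of the T cell chemokine receptor Cxcr3, by 3.53 (SE 0.68, adjusted p = 0.0266). Cxcl10 had 23, 21 and 9 reads in Plekhg5+/+, 417, 119 and 58 in Plekhg5+/+ SOD1-G93A and 75, 86 and 60 in Plekhg5-/- SOD1-G93A mice, while its receptor Cxcr3 had at most 7.17 reads in any library. In Plekhg5-/- SOD1-G93A compared with Plekhg5+/+ SOD1-G93A mice, 0 of the 11 passed in edgeR, and 9 had a negative log2 fold change, among them Ccl5 (−1.35, SE 0.35, adjusted p = 0.402 with edgeR and 0.0470 with DESeq2 and its prior). Both ligands thus had their highest library in Plekhg5+/+ SOD1-G93A mice, whereas 7 of the 9 lymphocyte markers had theirs in Plekhg5-/- SOD1-G93A #2. The MHC genes that CD4 and CD8 bind, 10 in number, were all tested, and B2m (0.98, SE 0.20, adjusted p = 0.0301) and Tap1 (1.04, SE 0.21, adjusted p = 0.0234) rose in Plekhg5+/+ SOD1-G93A mice; H2-K1 had 0.84 (adjusted p = 0.0592). None of the 5 calls in these lists remained when Plekhg5+/+ #1 or #2 was left out, where the calls among all genes fell from 498 to 4 and 2.

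Markers of other immune cells were compared in the same way. With SOD1-G93A in Plekhg5+/+ mice (edgeR), 11 of 12 microglia genes rose, led by Trem2, Itgam and Csf1r, and 5 of 6 pan-leukocyte genes, led by Cd52, Cd53 and Laptm5. Cd79b was the 1 of 12 B and plasma cell genes that rose (1.84, SE 0.41, adjusted p = 0.0366), ahead of Cd79a, which did not pass. Ms4a7 was the 1 of 8 border macrophage genes called higher. Pf4 and Cd163 did not pass, and the mean of Cd163 fell from 2.87 to 1.54 CPM. In this list 3 genes had a positive and 5 a negative log2 fold change, with a median of −0.19. Of 10 monocyte and dendritic cell genes, 7 were tested and 2, Itgax and Siglech, were called higher. There 3 log2 fold changes were positive and 4 negative (median −0.13), and Flt3, the next by p, had −0.42 (adjusted p = 0.0591, edgeR). Of the 5 red blood cell genes and the 10 granulocyte and mast cell genes, 0 passed, the smallest p belonging to Hba-a1, Hba-a2 and Hbb-bt and to Mpo, Elane and Ly6g. Among 12 spinal cord genes, Gfap rose, and Aqp4 and Chat did not pass. Without Plekhg5+/+ #1 or #2, 0 genes of these lists were called. In the other 4 comparisons edgeR called 0 genes of any list in the main fit of all 12 libraries. With only 2 genotypes, 1 monocyte and dendritic cell gene was called higher with SOD1-G93A in Plekhg5-/- mice. With a library left out, 1 homing gene was called lower with Plekhg5 loss without the transgene. DESeq2 called 8 list genes lower in Plekhg5-/- SOD1-G93A than in Plekhg5+/+ SOD1-G93A mice with its prior and 5 without it, and 6 and 4 with a negative interaction, among them Trem2, Cd52 and Laptm5 in each case. Microglia genes summed to 992 to 1866 CPM in Plekhg5+/+ SOD1-G93A and 737 to 822 CPM in Plekhg5-/- SOD1-G93A libraries, with 517 to 784 CPM in mice without the transgene. The part of these cells in the lymphocyte values was not tested.

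**Figure D4:**
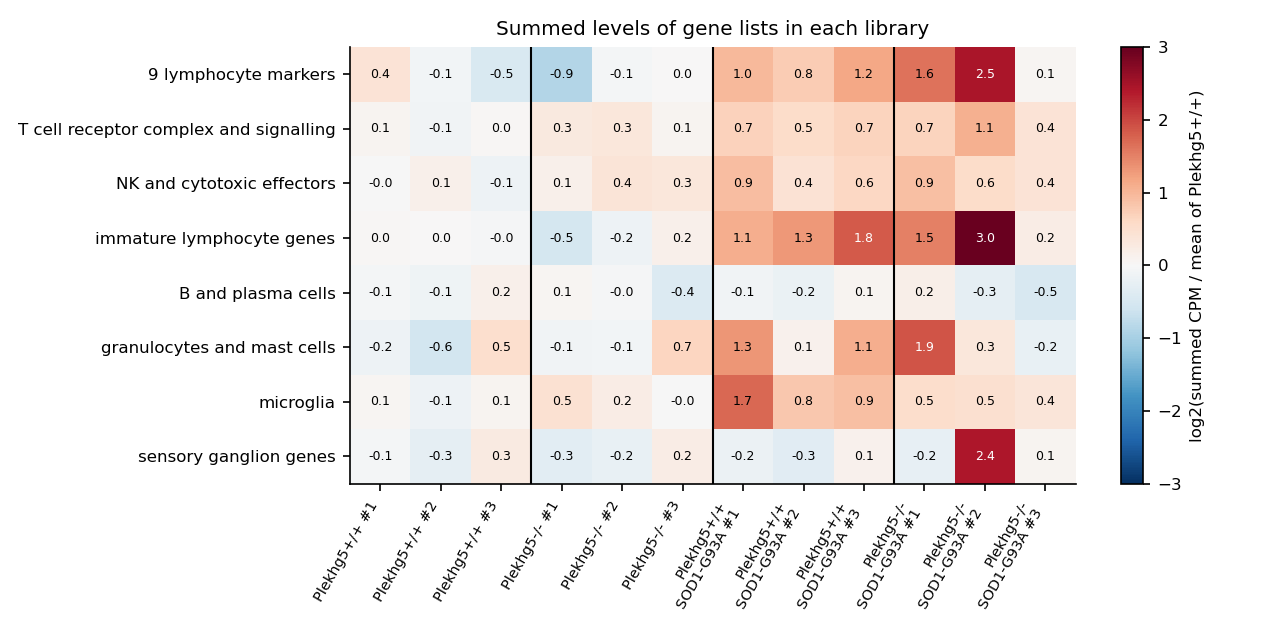
Summed CPM of 8 gene lists in each library, as the log2 ratio to the mean of the 3 Plekhg5+/+ libraries (colour and printed value); rows are lists, columns libraries, and black lines divide the genotypes. Plekhg5-/- SOD1-G93A #2 reaches 2.5 for the 9 lymphocyte markers, and its highest value is that of the immature lymphocyte genes at 3.0.

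Genes with the profile most like each tested marker were sought by the Pearson correlation of log2 CPM over the 12 libraries. For Cd4 they were Lck (r = 0.89), Cd8a (0.88) and Zswim1 (0.88), and for Cd8a Crry-ps (0.91), Rag1 (0.91) and Dntt (0.89). For Cd8b1 they were Mir702 (0.92), P3h1 (0.89) and A930024E05Rik (0.88), and for Cd2 Vps9d1 (0.88), Hdac6 (0.87) and Cabin1 (0.87). After subtraction of the genotype means, Cd4 and Lck correlated at 0.92, and Cd8a and Rag1 at 0.76. The correlations describe 12 libraries that share genotypes and depth, with few reads of the markers.

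Rag1, which cuts the antigen receptor genes in developing lymphocytes, and Dntt, which adds bases at those cuts, are genes of immature lymphocytes. Dntt had 1, 1 and 1 reads in Plekhg5+/+, 0, 0 and 1 in Plekhg5-/-, 7, 4 and 13 in Plekhg5+/+ SOD1-G93A and 13, 47 and 0 in Plekhg5-/- SOD1-G93A mice. Rag1 had 23, 23 and 19, 10, 23 and 20, 41, 41.5 and 79, and 55, 149.5 and 29 reads in the same order. It thus had 10 or more reads in each library without the transgene, 3 of which had 0 reads of Cd3e. In Plekhg5+/+ mice it made up 0.658 of the mean 0.945 CPM of the 5 immature lymphocyte genes, and in Plekhg5-/- SOD1-G93A #2 4.54 of 7.33 CPM. The source of the Rag1 reads was not tested. Ccr9, a chemokine receptor of thymocytes, had 4, 4 and 4, 5, 4 and 6, 12, 13 and 12, and 15, 32 and 8 reads. Of the other 2 genes of this kind, Rag2 had 10 reads in Plekhg5-/- SOD1-G93A #2 and at most 4 elsewhere, whereas Ptcra, the pre-T cell receptor chain, had 3 reads there and its most, 9.25, in Plekhg5+/+ SOD1-G93A #2. The library that was highest for Cd4, Cd8a and Cd8b1 was thus also the highest for 4 of these 5 genes and not for Ptcra, and Plekhg5-/- SOD1-G93A #3 the lowest transgenic library for Dntt, Rag1 and Ccr9. Without Plekhg5-/- SOD1-G93A #2, the correlations of Cd8a with Rag1 and Dntt over 11 libraries were 0.85 and 0.82. Those of the other tested markers with Rag1 and Dntt were lower, at 0.70 and 0.72 for Cd4, 0.69 and 0.57 for Cd8b1, and 0.30 and 0.38 for Cd2. These 5 genes were chosen with the values known, and the part of immature lymphocytes in the marker counts was not tested.

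Nkg7 kept to other libraries. Its 18 reads in Plekhg5+/+ SOD1-G93A #1 and in Plekhg5-/- SOD1-G93A #1 were in the libraries with the most reads of the neutrophil genes S100a8, with 915 and 1609 reads, and Mpo, with 174 and 265 reads. The other 10 libraries had at most 8 reads of Nkg7, 807 of S100a8 and 93 of Mpo. Granulocyte and mast cell genes summed to 33.7 to 182 CPM over the 12 libraries, with 42.8 CPM in Plekhg5-/- SOD1-G93A #3. The part of granulocytes in the Nkg7 reads was not tested.

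**Figure D5:**
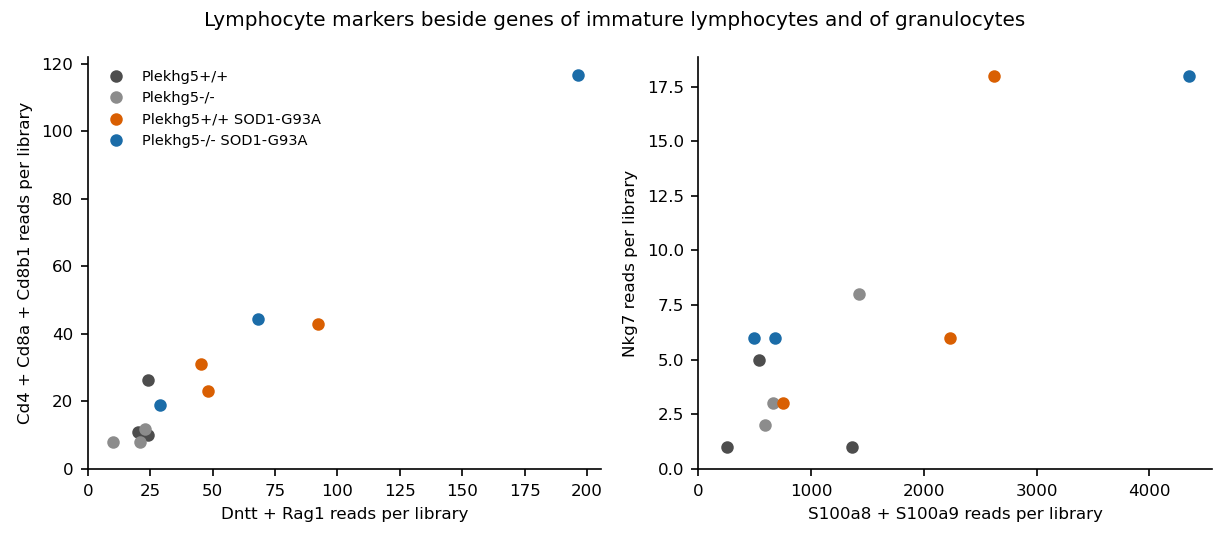
Left, reads of Cd4, Cd8a and Cd8b1 summed (y axis) against reads of Dntt and Rag1 summed (x axis); right, reads of Nkg7 (y axis) against reads of S100a8 and S100a9 summed (x axis). Each point is 1 library, coloured by genotype; the topmost point on the left is Plekhg5-/- SOD1-G93A #2, and the 2 points with 18 reads of Nkg7 lie farthest to the right.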

How the data were processed

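RNA of 12 spinal cords, 3 per genotype, was analysed from the table of counts that the authors deposited. Per the labels and the study's methods, polyadenylated RNA was sequenced with a stranded kit, reads were trimmed with cutadapt 2.4 and mapped with STAR 2.7.2b to GRCm38.p6 with the human SOD1 cDNA, and featureCounts 1.6.4 counted them by strand on RefSeq exons. Reads with several matches entered as fractions, so the deposited values are expected counts without normalization, which can lower counts of genes with near copies. Column names gave the mouse of each column.

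Counts were rounded to whole numbers. Genes passing filterByExpr were normalized by TMM and fitted for 4 genotypes together with edgeR 4.0.16 (robust quasi-likelihood test) in R 4.3.3, with Benjamini-Hochberg adjustment over 20155 genes and a threshold of 0.05. CPM use TMM, and log2 CPM a prior count of 2. Permutation tests were exact and two-sided (scipy 1.17.1). Alternatives were DESeq2 1.42.0 with and without a prior, its size factors, no filter, 2 genotypes only, a replicate block, a covariate for Y-linked transcripts (over 1000 counts), other roundings, a threshold of 0.1 and each of the 12 libraries left out. Rounding 0.5 upwards was chosen after seeing the data. The members and lists were chosen with earlier results of these data known. Named were the 9 markers, the 3 genes of each list with the smallest p with SOD1-G93A in Plekhg5+/+ mice, called T cell receptor or NK genes, and the 3 genes most like each tested marker; S100a8, S100a9 and the genes of ganglia and immature lymphocytes were added with their values known. Some genes that this rule names are not reported here. The edgeR fit was tested on simulated data in which every changed gene had a higher level than the markers. Detection at the depth of the markers was therefore not tested. Libraries of a genotype differed by more than counting noise over genes with at least 10 reads in a pair of libraries. All 12 were kept, with mice as the units of the p-values. In the main fit, edgeR estimated the spread of each marker with information from other genes and all 4 genotypes.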

Additional observations from a re-analysis of the deposited data

How the results depend on the processing

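Of the 9 markers, 0 were called in any of the 5 comparisons under every alternative run, including each left-out library, although DESeq2 gave no adjusted p for 3 to 9 of them, depending on the comparison. The depth, with 0 to 42 reads per marker and library, limits what can be shown. Among the tested markers, 12 log2 fold changes reversed their direction under an alternative and 392 did not, and none of these had passed the threshold; the cause was not tested. With a library left out, the log2 fold change ranged, for SOD1-G93A in Plekhg5+/+ mice, from −0.015 (without Plekhg5+/+ #3) to 1.28 for Cd8b1 and −0.92 to 0.11 (without Plekhg5+/+ #2) for Cd2; for Plekhg5 loss with SOD1-G93A, from −0.064 to 1.16 for Cd8a and −0.55 to 1.24 for Cd8b1, both negative without Plekhg5-/- SOD1-G93A #2; for Plekhg5 loss without the transgene, from −0.11 to 0.33 for Cd4 and −0.87 to 0.17 for Cd2; and for the interaction, from −0.050 (without Plekhg5-/- SOD1-G93A #2) to 1.35 for Cd4. Cd4 in Plekhg5-/- against Plekhg5+/+ mice was at −0.084 with the Y-linked covariate and −0.0019 with fractions rounded down. All 144 mean CPM of the markers under alternatives stayed within 1 SD.

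The calls over all genes moved more. For SOD1-G93A in Plekhg5+/+ mice they were 498, and 1200 with DESeq2 and its prior, 1159 without it, 3 with only 2 genotypes, 1145 at a threshold of 0.1, and 2 to 771 with a library left out. For Plekhg5 loss with SOD1-G93A they were 7, and 115, 75 and 11 in the first 3 settings, and 4 to 8 with a library left out. For Plekhg5 loss without the transgene they were 6, and 32 and 34 with DESeq2, and 5 to 59 with a library left out. For SOD1-G93A in Plekhg5-/- mice they were 1, and 41 and 43 with DESeq2, 20 with only 2 genotypes, and 1 to 9 with a library left out. For the interaction they were 0, and 112 and 95 with DESeq2, 1 without the filter, and 0 to 40 with a library left out. The cause of these changes was not tested.

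Replicate numbers were not treated as pairs in the main fit. Correlations of same-numbered deviations were −0.109 to 0.318, and not every pair exceeded 0.1. The highest, 0.318 and 0.298, belonged to #1 libraries, and whether libraries of a number shared their handling was not tested. With the replicate number as a block, 631, 8, 8, 1 and 0 genes were called in the 5 comparisons in the order above, and 0 of the markers.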
